A study of Rattus norvegicus with 53 samples.

Results

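The 5 genes described belong to the APRIL and BAFF pathway and to the B cell: Tnfsf13, which encodes the cytokine APRIL, Tnfsf13b, which encodes its relative BAFF, and the B-cell genes Cd79b, Ms4a1 and Blk. They were found by gene symbol in the array annotation, and 6 of the 31042 probe sets tested belonged to 4 of the 5 genes. Tnfsf13 had 2 probe sets, Blk had 2, and Cd79b and Ms4a1 had 1 each. Tnfsf13b matched 0 probe sets by symbol, by gene identifier and by accession, so BAFF is not analysed here and APRIL stands alone for the ligands. The genes were chosen from earlier results of these same arrays, in which Tnfsf13 was higher with d60 DRlyp/lyp and d60 DR+/+ serum than with autologous serum. Those differences of Tnfsf13 are therefore given as a description without a p-value. Which values brought in Cd79b, Ms4a1 and Blk is not recorded, so their p-values are not independent evidence either.

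APRIL and BAFF are ligands of the tumour necrosis factor family that monocytes, macrophages, dendritic cells and neutrophils make. APRIL acts through the receptors TACI and BCMA, and BAFF through these and BAFF-R, on B cells and plasma cells. There TRAF proteins and the kinase NIK (Map3k14) lead to the noncanonical NF-κB subunits p52 and RelB. CD79b is a signalling chain of the B-cell antigen receptor, CD20 (Ms4a1) is a membrane protein of mature B cells, and BLK is a Src-family kinase found mostly in B cells.

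The study cultured peripheral blood mononuclear cells (PBMC) of healthy male Brown Norway (BN) rats of about 180 days with serum or plasma of other rats as a sensor, and measured 1 Affymetrix rat array per culture, 53 in all. Cultures held 20% serum or plasma and lasted 6 h. The labels call the fluid serum in the sample names and plasma in the protocol. All 8 groups used BN cells and differed in the fluid. Autologous BN fluid, from the same strain and the cell donor, made 10 cultures, and allogeneic BN fluid made 15. Both were labelled 180 days. Fluid of d60 DRlyp/lyp rats, the BioBreeding line homozygous for the lyp lymphopenia allele, made 4 cultures. The same d60 DRlyp/lyp fluid with IL-1RA, an interleukin-1 receptor antagonist, added to the culture made 4. Fluid of d60 DR+/+ rats, the BioBreeding line without lyp, made 4. Autologous BN fluid with interleukin-1β (labelled IL-1B) added made 4. Finally, d40 DRlyp/lyp fluid came from rats given PBS in 6 cultures and from rats given IL-1RA in 6. By the study's design these rats were injected from day 30 for 10 days, at 350 ug/kg per day by the protocol, while the sample label reads as if IL-1RA had been added to the d40 serum. The design is followed here. The labels do not say whether cultures of a group used separate cell donors or separate serum donors, so p-values measure only the spread between these cultures. Precision is limited by how many arrays each group has.

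Ward clustering split the 53 arrays in 2, a split that no label mentions, and k-means and complete linkage each assigned 53 of 53 arrays to the same side. The first cluster held 21 arrays: 6 autologous, 3 allogeneic and all 12 of d40 DRlyp/lyp serum. The second held 32: 4 autologous, 12 allogeneic, and all arrays of d60 serum and of IL-1B. Every comparison was made within a cluster. The signal of 3′ over 5′ β-actin control probe sets, a measure of RNA integrity that rises as RNA degrades or is copied less far, averaged 3.58 log2 units in the first cluster and 2.58 in the second. Its lowest values were 0.762 in allogeneic replicate 2 of the first cluster and 1.13 in d60 DR+/+ replicate 4 of the second. Within the second cluster, allogeneic arrays ran from -18.2 to 70.6 on the first principal component, and d60 DRlyp/lyp arrays from -46.2 to 7.11. What this spread holds was not tested. The mean level of a member moved between clusters in different directions. Tnfsf13 averaged 5.11 log2 units in the first cluster and 6.48 in the second, Ms4a1 9.61 and 10.06, Cd79b 8.11 and 8.45, and Blk 6.77 and 6.14.

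The start of the Tnfsf13 gene is shown because Tnfsf13 is the member with the largest difference between d60 and autologous serum. Many genes of monocytes carry sites for the ETS factor PU.1. The RefSeq sequence of the 250 bases before its start, in the rat build GRCr8 at chr10:54901816-54902065 on the minus strand, was searched for GGAA, the core of ETS sites, on both strands. Capitals mark TTCC, which is GGAA read on the other strand.
Tnfsf13 promoter: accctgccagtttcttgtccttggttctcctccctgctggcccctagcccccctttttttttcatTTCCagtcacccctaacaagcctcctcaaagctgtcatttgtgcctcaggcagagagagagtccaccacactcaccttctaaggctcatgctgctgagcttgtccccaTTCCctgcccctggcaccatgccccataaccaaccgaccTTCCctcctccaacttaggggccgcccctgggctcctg
TTCC occurred 3 times and GGAA 0 times. Of 33469 rat promoter windows of the same length, 55.5% held at least as many matches on both strands and 93.2% held at least 1, so the count is usual for such a window. The neighbouring gene Tnfsf12, which encodes TWEAK, lies 800 bases from Tnfsf13 in that build and outside the window. The array files carry no coordinates, so probe sets were not placed on the genome.

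Tnfsf13, the APRIL gene, gave its highest values with d60 serum of either BioBreeding line. In autologous serum of the second cluster the 4 arrays read 5.27, 6.85, 6.12 and 6.00 log2 units, a mean of 6.06 ± 0.649 (SD, n = 4). With d60 DRlyp/lyp serum they read 6.92, 7.36, 8.05 and 7.26, a mean of 7.40 ± 0.472 (SD, n = 4). With d60 DR+/+ serum they read 6.88, 7.93, 8.10 and 6.87, a mean of 7.45 ± 0.659 (SD, n = 4). All 8 arrays of d60 serum without an addition lay above the highest autologous array, the lowest of them by a narrow margin. The difference from autologous serum was 1.34 for DRlyp/lyp (2.53-fold, SE 0.422, 95% interval 0.48 to 2.20) and 1.39 for DR+/+ (2.62-fold, SE 0.422, 0.53 to 2.25). These are the differences on which the gene was chosen. Tnfsf13 was not among the probe sets called at an adjusted p under 0.05 in limma in either comparison. Called were 2 of 31042 probe sets for DRlyp/lyp (0.00644%, with 1501 at an unadjusted p under 0.05) and 84 for DR+/+ (0.271%, of which 0.242% were higher and 0.0290% lower). The other Tnfsf13 probe set differed less, by 0.54 (SE 0.208) and 0.73 (SE 0.208). Its DR+/+ arrays of 5.04, 6.09, 6.10 and 5.87 overlapped the autologous arrays, which reached 5.40, while its DRlyp/lyp arrays of 5.52 to 5.72 did not.

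**Figure D1:**
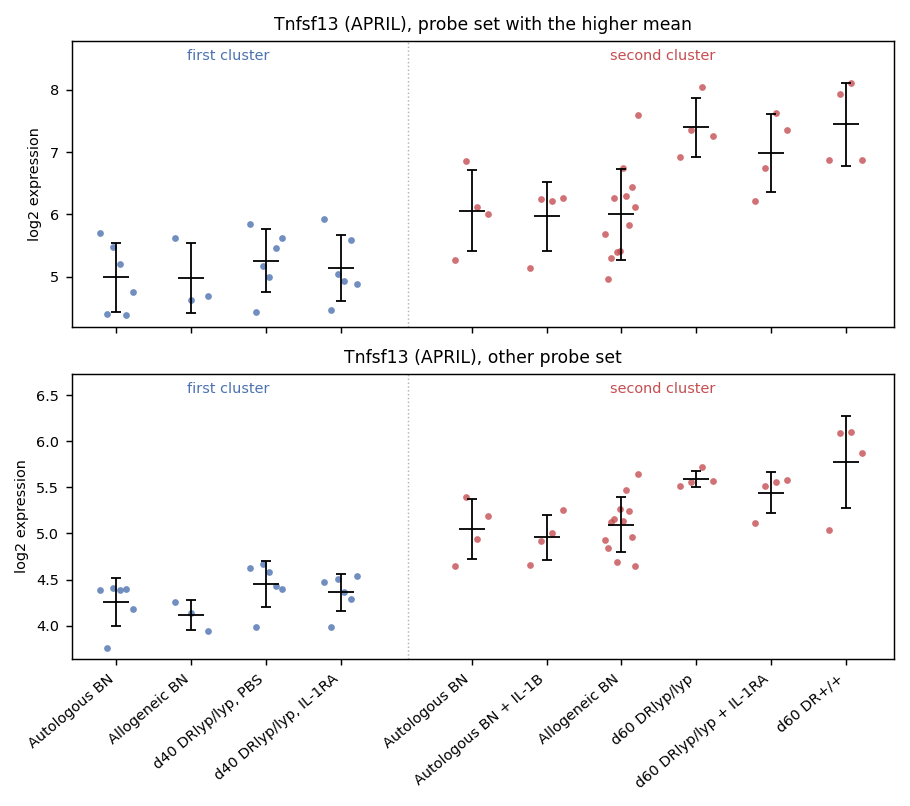
Log2 expression of the 2 Tnfsf13 probe sets (vertical axes, each with its own scale that does not start at 0) in every array, by group, with the first cluster on the left and the second on the right. Points are arrays, the long bar is the group mean and the short bars mark 1 SD either side. In the upper panel the d60 DRlyp/lyp arrays run from 6.92 to 8.05 and the d60 DR+/+ arrays from 6.87 to 8.10, against 5.27 to 6.85 in autologous serum of the same cluster, and 1 allogeneic array reaches 7.60.

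Against allogeneic BN serum, which shares with d60 serum that it comes from another animal, Tnfsf13 rose as well. The 12 allogeneic arrays of the second cluster ran from 4.97 over a median of 5.97 to 7.60, the last in replicate 15. The groups therefore overlapped, since that array stood above several d60 arrays. The difference was 1.39 for DRlyp/lyp (2.63-fold, SE 0.345, adjusted p = 0.0101) and 1.44 for DR+/+ (2.72-fold, SE 0.345, adjusted p = 0.00612), both by limma. The d60 arrays are those on which the gene was chosen, so these tests are not independent of the choice. They also stand on a wide background: 4964 probe sets (16.0%; 9.69% higher and 6.30% lower) were called for DRlyp/lyp and 6069 (19.6%; 11% higher and 8.53% lower) for DR+/+. With each array centred on its median, the same counts were 3896 higher and 974 lower for DRlyp/lyp and 4111 and 1640 for DR+/+. Without d60 DRlyp/lyp replicate 3, the highest of its group, the first difference was 1.18 (adjusted p = 0.07), and over all alternatives its adjusted p ran from 0.00354 to 0.07. The second ran from 0.00136 to 0.0418.

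Allogeneic and autologous serum gave similar Tnfsf13 levels. The second cluster had a mean of 6.00 ± 0.729 (SD, n = 12) in allogeneic serum and 6.06 in autologous serum. The difference was -0.06 (SE 0.345, 95% interval -0.76 to 0.64, adjusted p = 0.954 in limma). In this comparison 2 probe sets were called (0.00644%). In the first cluster the allogeneic arrays of 5.63, 4.63 and 4.69 and the autologous arrays, from 4.39 over a median of 4.98 to 5.70, had means that both rounded to 4.99. There 9 probe sets were called (0.0290%), and 0 without allogeneic replicate 2.

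The DRlyp/lyp and DR+/+ sera were not shown to differ in Tnfsf13. DRlyp/lyp minus DR+/+ was -0.05 (SE 0.422, 95% interval -0.91 to 0.81, adjusted p = 1), in a comparison that called 1 probe set (0.00322%). These cultures were paired by number, and with the replicate number as a block the SE was 0.197 (adjusted p = 0.963 in limma). IL-1RA added to d60 DRlyp/lyp serum gave arrays of 6.22, 6.75, 7.62 and 7.36, a mean of 6.99 ± 0.628 (SD, n = 4), and 2 of them lay below every array of the unsupplemented serum. The difference from that serum was -0.41 (SE 0.422, -1.27 to 0.45, adjusted p = 1), where limma called 0 probe sets (0%) and 808 had an unadjusted p under 0.05. With the replicate number as a block the SE of this difference was 0.156 (adjusted p = 0.37 in limma). Against autologous serum the supplemented serum stood 0.93 higher (SE 0.422, 0.07 to 1.78, adjusted p = 0.641), with 11 probe sets called (0.0354%). Interleukin-1β in autologous serum gave 5.14, 6.25, 6.22 and 6.27, so 3 arrays nearly coincided and replicate 1 lay apart. The difference from autologous serum was -0.09 (SE 0.422, -0.95 to 0.77, adjusted p = 1), with 0 probe sets called (0%) and 855 at an unadjusted p under 0.05. Ordered by group mean in the second cluster, Tnfsf13 ran IL-1B, allogeneic, autologous, d60 DRlyp/lyp with IL-1RA, d60 DRlyp/lyp and d60 DR+/+. The first 3 differed among themselves by less than 1 SD of any of them, and so did the last 3.

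With serum of younger DRlyp/lyp rats, all in the first cluster, Tnfsf13 stood near the autologous serum of that cluster. With d40 serum after PBS, Tnfsf13 ran from 4.44 over a median of 5.32 to 5.84, and after IL-1RA from 4.47 over 4.99 to 5.92, both within or just above the range of autologous serum. The differences from autologous serum were 0.27 (SE 0.275, 95% interval -0.30 to 0.84, adjusted p = 0.999) and 0.15 (SE 0.275, -0.42 to 0.72, adjusted p = 1). IL-1RA treatment of the rats against PBS gave -0.12 (SE 0.275, -0.69 to 0.45, adjusted p = 1). Limma called 0 probe sets (0%) in each of these 3 comparisons, with 1523, 417 and 923 at an unadjusted p under 0.05. With the replicate number as a block, the SE was 0.172 for PBS against autologous serum, 0.169 for IL-1RA against autologous serum and 0.115 for IL-1RA against PBS. The adjusted p was then 0.592, 0.999 and 0.79 in limma. The distance from autologous serum was 1.07 larger for d60 than for d40 DRlyp/lyp serum (SE 0.524). That difference holds the one on which the gene was chosen and has no p-value here, and 0 probe sets of the array were called in it (0%, with 1450 at an unadjusted p under 0.05). Age of the rats, the PBS injections and the cluster cannot be told apart in it. Tnfsf13 was also weak in the first cluster: its 2 probe sets averaged 5.11 and 4.32, below the lowest array median of 5.29. Differences near background are compressed in these values. The other probe set differed from autologous serum by 0.19 after PBS and 0.10 after IL-1RA.

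The genes whose levels ran most like Tnfsf13 were found by Pearson's r over arrays. Over the 32 arrays of the second cluster the 5 highest were Cd14 (0.92), the lipopolysaccharide co-receptor of monocytes, Fn1 (0.91), which encodes fibronectin, Tgfbi (0.90), a secreted matrix protein, Mpeg1 (0.89), a perforin-like protein of macrophages, and Cxcl16 (0.87), a chemokine. Over the 21 arrays of the first cluster, where no d60 serum was present, the same r was 0.79 for Cd14, 0.52 for Fn1, 0.55 for Tgfbi, 0.60 for Mpeg1 and 0.61 for Cxcl16. The arrays share serum groups and normalisation, and those of the second cluster include the d60 arrays on which Tnfsf13 was chosen. With the B-cell members Tnfsf13 had r of 0.13 for Cd79b, 0.01 for Ms4a1 and 0.07 for Blk in the second cluster, and -0.33, -0.17 and 0.30 in the first.

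The level of the 20 measured monocyte genes of 22 listed moved with the same groups. Their mean ran from 7.71 to 7.81 in d60 DRlyp/lyp serum, 7.66 to 7.83 with IL-1RA added and 7.57 to 7.96 in d60 DR+/+ serum. In autologous serum of the same cluster it ran from 6.89 to 7.52 and in IL-1B from 6.88 to 7.27, so the d60 arrays lay above both. Allogeneic arrays ran from 6.41 to 7.98. Against autologous serum 0 of 20 were called for DRlyp/lyp (median difference 0.45, over all 14217 genes 0.01), with Cd14 at 1.74 (adjusted p = 0.39 in limma) and Vcan, which encodes versican, at 1.74 (adjusted p = 0.51). The list was not uniform: 15 of 20 differences were positive for DRlyp/lyp and 13 of 20 for DR+/+. For DR+/+ 3 rose and 0 fell (median 0.60, over all genes -0.06; 0.253% of all genes rose): Fn1 by 2.63 (adjusted p = 0.0271), Mpeg1 by 2.23 (adjusted p = 0.0135) and Fcgr1a, the high-affinity IgG receptor, by 1.10 (adjusted p = 0.0479). The other Mpeg1 probe set stood at -0.23 there. Vcan, at 1.79 (adjusted p = 0.0717 in limma), was not called there. Its other probe sets stood at 3.22 (adjusted p = 0.0133), 1.52 (adjusted p = 0.0442), 1.77 (adjusted p = 0.0655) and 0.02 (adjusted p = 0.954). Against allogeneic serum, where 15.6% of all 14217 genes rose for DRlyp/lyp and 15% for DR+/+, 12 and 11 of 20 rose, Cd14 by 1.97 and 1.93, and 1 fell in each, the chemokine receptor Ccr2, by 0.56 and by 0.47. Medians there were 0.68 and 0.70, over all genes 0.05 and 0.03. After a second quantile normalisation 9 and 8 of the 20 were called in either direction, and 5.92% and 6.71% of all genes rose. Of 31042 probe sets 2369 and 3741 were then called. Whether the monocyte genes account for the level of Tnfsf13 was not tested, and in such bulk cultures more cells of a type and more RNA per cell cannot be told apart.

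**Figure D2:**
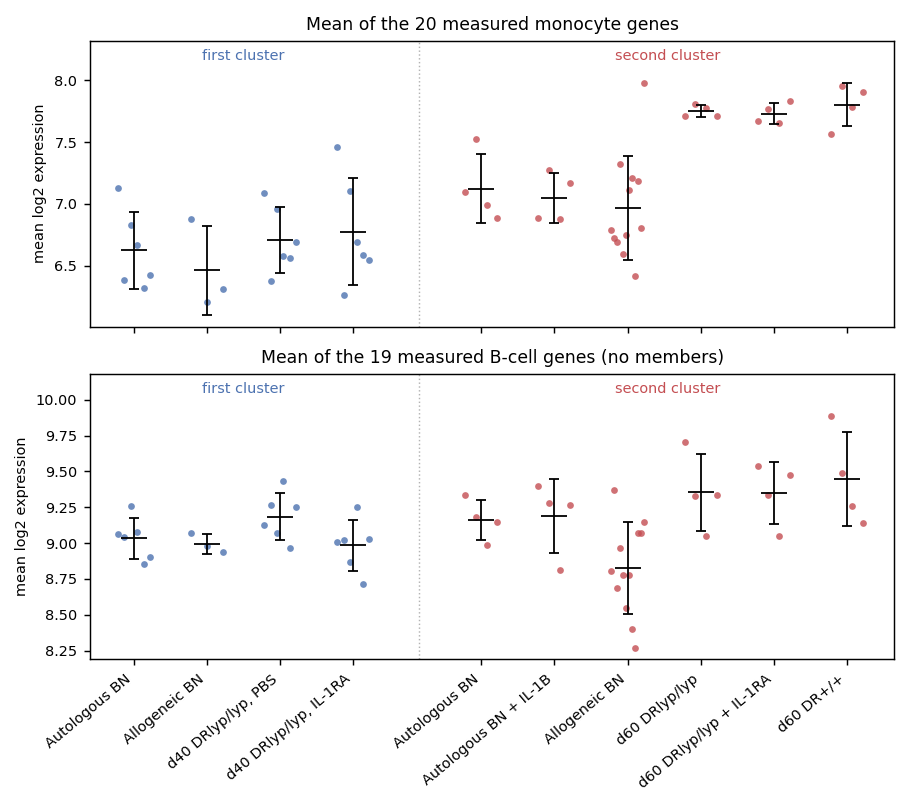
Mean log2 expression (vertical axes, not starting at 0) of the 20 measured monocyte genes and of the 19 measured B-cell genes other than the members, in every array, by group and cluster. Points are arrays, the long bar is the group mean and the short bars mark 1 SD either side. The monocyte mean is 7.57 or more in all arrays of d60 serum and at most 7.52 in autologous serum, while the B-cell means of autologous serum (8.99 to 9.33) and of d60 DRlyp/lyp serum (9.05 to 9.71) overlap.

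Of the receptors and signalling genes of APRIL and BAFF, 13 of 15 were measured. TACI (Tnfrsf13b) and BAFF-R (Tnfrsf13c) had no probe set. BCMA (Tnfrsf17), the plasma cell receptor of APRIL, differed from autologous serum by -0.00 with DRlyp/lyp and -0.02 with DR+/+ serum, and from allogeneic serum by -0.09 and -0.11, none of them called. Against autologous serum 0 of 13 were called for DRlyp/lyp (median 0.07). For DR+/+ 1 rose, the adaptor Traf3, which holds NIK in check, by 1.36 (SE 0.308, adjusted p = 0.0427 in limma). The second Traf3 probe set stood at 0.14, and the call was absent after either rescaling of the arrays, where 0 of 13 were called. Against allogeneic serum 3 of 13 rose with DRlyp/lyp and none fell (median 0.35), against 15.6% of all genes that rose and a median of 0.05, so a count of 3 is close to the background: the ubiquitin ligases Birc2, by 1.28 (adjusted p = 0.00696), and Birc3, by 0.85 (adjusted p = 0.00764), and Sdc1, a proteoglycan that binds APRIL, by 0.32 (adjusted p = 0.0466; its second probe set -0.03). With DR+/+ 3 rose and none fell (median 0.71), against 15% of all genes. After a second quantile normalisation 2 were called, the median was 0.36 and 6.71% of all genes rose. The 3 were the kinase Map3k14, higher by 0.98 (adjusted p = 0.00631), Traf3 by 0.81 (adjusted p = 0.0253; its second probe set -0.03) and Birc3 by 0.75 (adjusted p = 0.0113). A further fit left out d60 DR+/+ replicate 4 and allogeneic replicate 2, the arrays of lowest actin difference, a choice made after seeing the data. A low actin difference does not mark degraded RNA. Only the first of these arrays lies in the second cluster, so the allogeneic arrays compared here stayed the same. In that fit 9 of 13 rose with DR+/+ (median 0.85). Among them were Nfkb2, which encodes p52, by 1.97, Relb by 1.40 and Traf6 by 1.41. In that fit 28.9% of all 31042 probe sets were called, 4424 of them higher and 4543 lower. The neighbouring gene Tnfsf12 (TWEAK) stood 0.12 and 0.23 above autologous serum, and 0.28 and 0.38 above allogeneic serum, without a call (adjusted p = 0.0506 for the last). Without those 2 arrays the last was 0.43 (adjusted p = 0.0371), 1 of the 9 above.

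Cd79b, of the B-cell receptor complex, gave overlapping values with d60 and autologous serum. Its autologous arrays of the second cluster read 9.06, 9.48, 8.25 and 8.11 (8.73 ± 0.654, SD, n = 4), and those of d60 DRlyp/lyp serum 9.83, 9.65, 7.98 and 8.74 (9.05 ± 0.855, SD, n = 4). The d60 DR+/+ arrays read 9.37, 9.91, 8.41 and 6.25 (8.49 ± 1.61, SD, n = 4). The last, replicate 4, was the lowest of all 53 arrays and also had the lowest actin difference of its cluster. Allogeneic replicate 2, with the lowest actin difference of the first cluster, had the lowest Cd79b there (6.78). It belongs to a group that ran low in Cd79b. Whether Cd79b follows the actin difference was not tested. The groups overlapped. Against autologous serum Cd79b differed by 0.32 for DRlyp/lyp (SE 0.569, 95% interval -0.83 to 1.48, adjusted p = 0.95) and by -0.24 for DR+/+ (SE 0.569, -1.40 to 0.92, adjusted p = 0.882). Both intervals are wide, and each holds changes of 0.9 log2 units up as well as 0.8 down. Leaving out 1 array at a time gave 0.06 to 0.68 for DRlyp/lyp and -0.72 to 0.50 for DR+/+, so the sign of the latter turned on single arrays.

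In allogeneic serum Cd79b ran low. The 12 arrays of the second cluster ran from 7.03 over a median of 7.71 to 9.36, and the 3 of the first cluster read 7.43, 6.78 and 7.61. The difference from autologous serum was -0.80 in the second cluster (SE 0.465, 95% interval -1.75 to 0.14, adjusted p = 0.407) and -0.81 in the first (SE 0.333, -1.50 to -0.12, adjusted p = 0.278). Neither was called, and the test of the difference between the clusters gave 0.00 (SE 0.656, adjusted p = 0.999), where 0.696% of probe sets were called and 0 of the 4 genes. Against allogeneic serum d60 DRlyp/lyp serum stood 1.13 higher (2.19-fold, SE 0.465, 0.18 to 2.07, adjusted p = 0.0856), and DR+/+ serum 0.56 higher (SE 0.465, -0.38 to 1.51, adjusted p = 0.373). The side of the threshold turned on single arrays. Without allogeneic replicate 5 the DRlyp/lyp difference was 1.26 (adjusted p = 0.0485, range over its alternatives 0.00708 to 0.301). Without d60 DR+/+ replicate 4 the DR+/+ difference was 1.31 (adjusted p = 0.0264, range 0.00886 to 0.911).

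Ms4a1 (CD20) overlapped between all groups of the second cluster. In the second cluster it averaged 10.29 ± 0.285 in autologous serum (10.68, 10.21, 10.01 and 10.28), 10.39 ± 0.442 with d60 DRlyp/lyp serum (10.91, 10.26, 9.86 and 10.53) and 9.92 ± 0.363 with d60 DR+/+ serum (10.45, 9.65, 9.72 and 9.85), all SD with n = 4. Allogeneic arrays ran from 8.73 over 9.87 to 10.70. The differences from autologous serum were 0.10 (SE 0.307, 95% interval -0.53 to 0.72, adjusted p = 0.97) and -0.38 (SE 0.307, upper bound 0.25, adjusted p = 0.604), and for allogeneic serum -0.41 (SE 0.251, -0.92 to 0.10, adjusted p = 0.442). From allogeneic serum DRlyp/lyp differed by 0.50 (SE 0.251, adjusted p = 0.15) and DR+/+ by 0.03 (SE 0.251, adjusted p = 0.941).

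Within the second cluster Blk had its highest group mean with d60 DR+/+ serum. All group means of the first cluster but that of allogeneic serum were higher still, at 6.71 to 6.95. In the second cluster the d60 DR+/+ arrays read 7.33, 6.55, 6.22 and 6.35 (6.61 ± 0.496, SD, n = 4). All lay above the autologous arrays of 5.82, 6.07, 5.66 and 6.10 (5.91 ± 0.209, SD, n = 4). The d60 DRlyp/lyp arrays read 6.57, 6.00, 5.81 and 6.09 (6.12 ± 0.323, SD, n = 4), which overlapped both. The difference of DR+/+ from autologous serum was 0.70 (1.63-fold, SE 0.251, 95% interval 0.19 to 1.21), short of a call (adjusted p = 0.2 in limma). That of DRlyp/lyp was 0.21 (SE 0.251, -0.30 to 0.72, adjusted p = 0.932). The difference between the 2 BioBreeding sera was -0.50 (SE 0.251, -1.01 to 0.01, unadjusted p = 0.0565, adjusted p = 1) without regard to pairing. DRlyp/lyp was lower in 4 of 4 same-numbered pairs. With the replicate number as a block the SE was 0.146 and the adjusted p 0.683, so no call was made either way. Against allogeneic serum, which ran from 5.57 over 5.89 to 6.71, Blk rose with DR+/+ by 0.62 (1.53-fold, SE 0.205, adjusted p = 0.0345), and the groups overlapped. Its second probe set rose by 0.45 (SE 0.129, adjusted p = 0.0165). Replicate 1 of DR+/+ was the highest array of the second cluster, and without it the difference was 0.38 (adjusted p = 0.246). Without replicate 2 it was 0.64 (adjusted p = 0.0592), and over all alternatives the adjusted p ran from 0.00226 to 0.257. With DRlyp/lyp the difference from allogeneic serum was 0.12 (SE 0.205, adjusted p = 0.695). The 2 d60 comparisons share their allogeneic arrays.

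**Figure D3:**
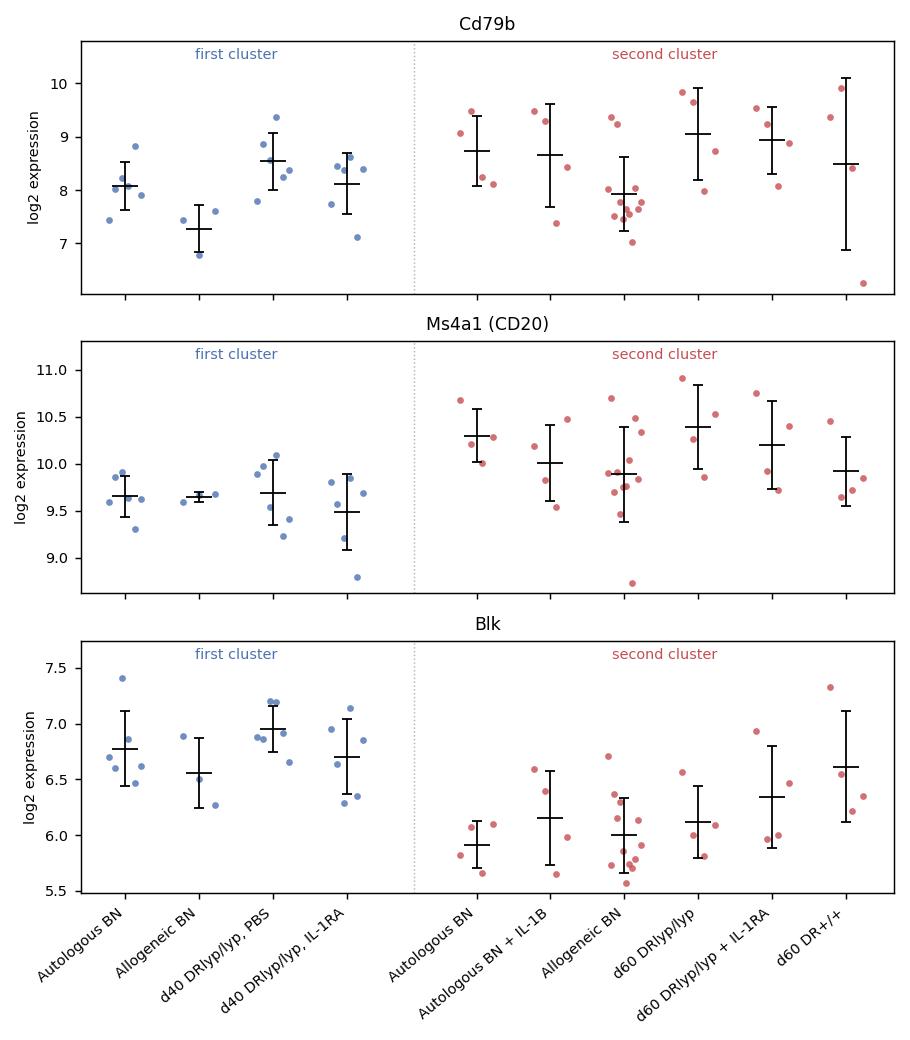
Log2 expression of Cd79b, Ms4a1 and Blk (1 probe set each, vertical axes with their own scales that do not start at 0) in every array, by group and cluster. Points are arrays, the long bar is the group mean and the short bars mark 1 SD either side. For Cd79b the d60 DR+/+ arrays spread from 6.25 to 9.91, for Ms4a1 the groups of the second cluster overlap, and for Blk the d60 DR+/+ arrays (6.22 to 7.33) lie above the autologous ones (5.66 to 6.10).

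With IL-1B, IL-1RA and d40 serum no B-cell member was called. IL-1B differed from autologous serum by -0.08 for Cd79b (95% interval -1.24 to 1.08), -0.29 for Ms4a1 (-0.91 to 0.34) and 0.25 for Blk (-0.26 to 0.76). IL-1RA added to d60 DRlyp/lyp serum gave -0.12 for Cd79b (-1.28 to 1.04), -0.19 for Ms4a1 (-0.82 to 0.43) and 0.22 for Blk (-0.29 to 0.73) against the unsupplemented serum. With the replicate number as a block the SEs of these were 0.135, 0.1 and 0.13 (adjusted p = 0.796, 0.499 and 0.549 in limma). The d40 serum after PBS stood 0.46 above autologous serum for Cd79b (SE 0.272, -0.11 to 1.02, adjusted p = 0.994). There the 6 arrays reached 9.37, against 8.82 in autologous serum. With the replicate number as a block the SE of this Cd79b difference was 0.184 (adjusted p = 0.396 in limma). Ms4a1 differed by 0.03 and Blk by 0.17. IL-1RA treatment of the rats against PBS gave -0.42 for Cd79b (SE 0.272, -0.98 to 0.14), -0.20 for Ms4a1 (SE 0.175, -0.56 to 0.16) and -0.25 for Blk (SE 0.172, -0.60 to 0.11). These 3 estimates had the same sign, and none was called (adjusted p = 1 for each, without regard to pairing). These cultures were paired by number, and with the replicate number as a block the SEs were 0.139, 0.101 and 0.137. The adjusted p was then 0.304, 0.535 and 0.59 in limma, again without a call.

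The wider list of 19 measured B-cell genes out of 28 leaves out the members. Against autologous serum its median was 0.22 with d60 DRlyp/lyp serum (16 of 19 positive) and 0.38 with DR+/+ serum (14 of 19 positive). Over all genes the medians were 0.01 and -0.06. With DR+/+ serum Blk had the same sign (0.70), and Cd79b (-0.24) and Ms4a1 (-0.38) the other. None of the list was called in either comparison (0 of 19), where 0.00703% and 0.253% of all genes rose. The nearest with DR+/+ were Ciita, the transactivator of MHC class II genes, at 1.02 (adjusted p = 0.0516 in limma; its other probe set 0.10) and the transcription factor Bcl11a at 0.83 (adjusted p = 0.0617). Against allogeneic serum 7 of 19 rose with DRlyp/lyp (median 0.58, over all genes 0.05, of which 15.6% rose), the largest being the tetraspanin Cd37 by 1.20, the co-stimulatory receptor Cd40 by 1.18, the invariant chain Cd74 by 1.05 and the coactivator Pou2af1 by 0.91. With DR+/+ 10 rose (median 0.69, over all genes 0.03, of which 15% rose), Ciita by 1.23 (its other probe set 0.12), Pou2af1 by 1.07, the IgM receptor Fcmr by 0.97 and Swap70 by 0.94. After a second quantile normalisation these counts were 1 and 3 of 19, the medians 0.25 and 0.40, and the shares of all genes that rose 5.92% and 6.71%. None fell in either. Cd37, Cd40, Cd74 and Ciita are also expressed by monocytes or dendritic cells. Allogeneic serum itself stood below autologous serum in 16 of 19 (median -0.30, but -0.07 after a second quantile normalisation) with 0 called. For d40 serum medians were 0.14 after PBS against autologous serum and -0.22 for IL-1RA against PBS, with 0 called in each.

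Other cell types were followed through lists of their genes. The 8 measured platelet genes had medians of -0.66 for DRlyp/lyp and -1.17 for DR+/+ against autologous serum, with 0 of 8 called in each, and all 8 stood below it in both. Against allogeneic serum 3 of 8 fell with DR+/+ (Mmrn1 by 1.37, Gp5 by 1.19 and Treml1 by 0.98) and 1 of 8 with DRlyp/lyp, Gp5. Of all genes 7.82% and 5.04% fell there. After a second quantile normalisation 5 and 2 of the 8 platelet genes were called. Of 31042 probe sets 3741 and 2369 were then called, 1816 and 1019 of them lower. The 16 measured T-cell genes had medians of 0.16 and -0.07 against autologous serum with 0 called. Against allogeneic serum 3 rose with DRlyp/lyp (median 0.41), near the 15.6% of all genes, and with DR+/+ 2 rose and 1 fell (median 0.19). After a second quantile normalisation the medians were 0.11, with 0 called, and -0.06, with 1 called. NK-cell genes had medians of 0.06 and -0.29 against autologous serum, neutrophil genes -0.05 and -0.01, erythroid genes -0.01 and -0.22, and interferon response genes 0.10 and 0.09, with 0 called in any. What part other cell types have in the levels of the B-cell members was not tested.

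Genes most like the B-cell members by Pearson's r were not the listed B-cell genes. Over the second cluster Cd79b was most like Cyb5r3 (0.96), Commd4 (0.96), Gps1 (0.95), Rabep2 (0.95) and Tom1 (0.94), with 0.77, 0.82, 0.74, 0.78 and 0.49 in the first. Ms4a1 was most like Adgrv1 (0.90), Stat4 (0.86), Gsap (0.86), Plbd1 (0.84) and Ctsh (0.83), with 0.59, 0.69, 0.57, 0.66 and 0.89 in the first. Blk was most like Reep6 (0.76), Prkce (0.74), Pde6h (0.71), Fchsd2 (0.71) and Nrarp (0.71), with 0.26, 0.57, 0.52, 0.54 and 0.58 in the first. The members correlated with each other more loosely, Cd79b with Ms4a1 at 0.56 and 0.30, Cd79b with Blk at 0.42 and 0.42, and Ms4a1 with Blk at 0.25 and 0.57. All are descriptions over 32 and 21 arrays that share serum groups and normalisation.

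**Figure D4:**
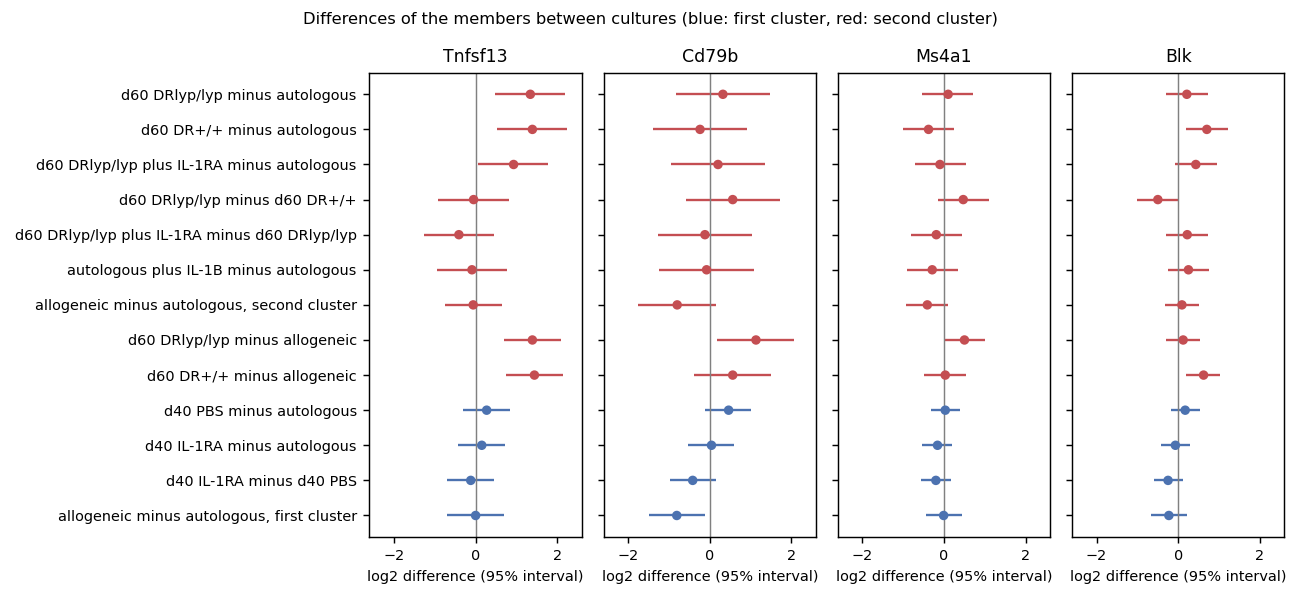
Log2 difference with its 95% interval for the 4 measured members (1 probe set each) in the comparisons of the study, each within its cluster. The vertical line marks no difference. Tnfsf13 stands at 1.34 and 1.39 for d60 DRlyp/lyp and DR+/+ serum against autologous serum, the differences on which it was chosen. Ms4a1 stands there at 0.10 and -0.38, Cd79b at 0.32 and -0.24 and Blk at 0.21 and 0.70. The d40 and IL-1B differences of all 4 lie between -0.42 and 0.46.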

How the data were processed

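Gene expression was measured on 53 Affymetrix rat arrays of cultured PBMC. The deposited table holds log2 values per probe set. Per the submitters' processing notes they were made with RMA, a method that subtracts background, equalises the arrays and combines the probes of a set, and with Partek 6.2. What Partek did, which RMA version was used, the genome build and any detection calls are not given in the sources used here. Differences near background are compressed by RMA, so changes of weak genes are understated. Array medians ran from 5.29 to 5.63, and no pair of arrays correlated above 0.9963.

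Of 31099 probe sets, 57 controls were left out and 31042 tested. The array annotation gave 1 symbol for 20826, several for 436 (not named) and none for 9780. A gene is represented by its probe set with the highest mean over all arrays, which gave 14217 genes. Groups came from the labels. The 2 clusters came from Ward clustering, and group means were fitted within each cluster with limma 3.58.1 in R 4.3.3 (moderated variances with a trend). P-values are two-sided and Benjamini-Hochberg adjusted over all 31042, and the threshold for a call was an adjusted p of 0.05. Differences between clusters were tested in 1 fit of all arrays. The fit was tested on simulated data. Figures used Python 3.11.15 and matplotlib 3.10.9.

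The members, the gene lists (APRIL and BAFF receptors and signalling, B-cell, monocyte, T-cell, NK-cell, platelet, erythroid, neutrophil and interferon response genes) and the comparisons were chosen with earlier results of these data known. Named genes are the members, the receptor list, up to 4 called genes of largest change per list and comparison or up to 2 of smallest p where none was called, and the 5 genes of highest r with each member. Tnfsf13b is not analysed here. The promoter comes from RefSeq, build GRCr8.

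Alternatives were pooling the clusters or using the cluster as a block, sharing the spread over all arrays, fitting only 2 groups, the replicate block, a second quantile normalisation, median centring, only probe sets above the median, no trend, array weights, the actin difference as a covariate, the other probe set, and leaving out each array. Same-numbered cultures were checked for pairing by the correlation of their deviations from group means. By the rule that every pair exceeds 0.1, d60 DRlyp/lyp and DR+/+ were paired (lowest r 0.175, 4 pairs), as were d40 IL-1RA with PBS (0.401, 6 pairs) and d40 IL-1RA with autologous serum (0.129, 6 pairs). The numbers come from the labels, which do not say what they share.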

Additional observations from a re-analysis of the deposited data

Results flagged for a closer look

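Among 48 sets of 4 to 10 arrays (a probe set in a group of a cluster), 3 had 1 array farther from the others than Dixon's 95% limit allows, and chance flags about 1 in 20 such sets. All 3 concern Tnfsf13 and all 3 are low values. In autologous serum with IL-1B, replicate 1 read 5.14 where the others lay between 6.22 and 6.27, with an actin difference of 2.62. For the other Tnfsf13 probe set, autologous replicate 2 of the first cluster read 3.76 against 4.18 to 4.41 (actin difference 4.18). For the same probe set, d60 DRlyp/lyp serum with IL-1RA replicate 1 read 5.11 against 5.52 to 5.58 (actin difference 2.79).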

How the results depend on the processing

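Of 1230 alternative values for 60 differences, 1209 kept their call, 6 lost one and 15 gained one. A total of 72 changed sign, none of them called. For Tnfsf13, pooling the clusters gave 1.98 for d60 DRlyp/lyp and 2.03 for d60 DR+/+ against autologous serum, and the cluster as a block gave 1.40 for DR+/+. The gene was chosen on these differences, so nothing is read from their p-values, although 3 of the 15 gains are theirs. Pooling sets arrays of 1 cluster against a baseline that is mostly of the other. For Blk, array weights gave 0.93 for DR+/+ against autologous serum (adjusted p = 0.0336 in limma). Blk against allogeneic serum lost its call with clusters pooled (0.50), with only the 2 groups (0.62) and after a second quantile normalisation (0.61). Cd79b with DRlyp/lyp against allogeneic serum gained a call at 1.13 with the cluster as a block, with the spread shared, with only the 2 groups and without the 2 arrays of low actin difference. It also did so with array weights (1.41) and with the actin covariate (1.61), which gave 0.70 for Ms4a1 with a call. Cd79b with DR+/+ gained one with array weights (1.27) and without those 2 arrays (1.31). Leaving those 2 out was chosen after seeing the data. The causes were not tested. Leaving out 1 array at a time against allogeneic serum gave 1.18 to 1.55 for Tnfsf13 with DRlyp/lyp, 0.87 to 1.48 and 0.09 to 1.31 for Cd79b with DRlyp/lyp and DR+/+, and 0.38 to 0.75 for Blk with DR+/+. A second quantile normalisation called 2369 and 3741 probe sets for DRlyp/lyp and DR+/+ against allogeneic serum. The replicate block changed no call in 28 values, for example -0.05 for Tnfsf13 and -0.50 for Blk between the paired d60 sera. By the rule above the numbers did not pair d40 PBS with autologous serum (lowest r 0.0514), DRlyp/lyp with and without IL-1RA (0.0706) or allogeneic with autologous serum (-0.231 and 0.0875). The mean r of same-numbered cultures was 0.344, 0.384, -0.0105 and 0.302 in that order. For cultures of other numbers it was -0.0575, -0.124, 0.00367 and -0.133. So the rule left comparisons unpaired whose same-numbered cultures correlated on average. The other comparisons share fewer than 2 numbers and had no block. The autologous arrays of the second cluster carry later numbers than the d60 and IL-1B arrays. Whether these arrays pair in order was not tested, and their intervals take no account of such pairing.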
